A study of Mus musculus with 22 samples.

Results

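Endoplasmic reticulum (ER) stress and unfolded protein response genes were examined in the lungs of mice exposed to Mitsui7, a multi-walled carbon nanotube. The set holds 36 genes, namely 12 ER chaperones and folding factors, 4 protein disulfide isomerases, 7 genes of ER-associated degradation, 6 stress sensors and transcription factors, 4 targets of the integrated stress response and 3 genes of the translocon and signal peptidase. Each gene was represented by its brightest probe among those whose RefSeq accession maps to it, and the array names 20018 genes in this way. Of the 36 genes, 35 were expressed, among 16407 expressed genes in all. The exception was Dnajb11, a co-chaperone, whose probe was well above background on 1 of 22 arrays, so it was not tested. The probes of the other 35 genes were well above background on all 22 arrays, and none was saturated.

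All mice were female C57BL/6, 8 weeks old at the start, anaesthetised and given a single intratracheal instillation. The vehicle group had 5 mice, and Mitsui7 was given to 6 mice at 18 µg, 5 mice at 54 µg and 6 mice at 162 µg, and the right lung was taken after 24 hours. The vehicle, which every mouse received, was 0.9% NaCl with 10% bronchoalveolar lavage fluid, and there was no group without instillation. Lung RNA was labelled with Cy5 and hybridised against a universal reference RNA pooled from 11 mouse cell lines, labelled with Cy3, and levels are given as the log2 of the lung signal over that of the reference. RNA came from whole lung lobes, where fewer cells of a type and less RNA per cell cannot be told apart. Markers of the lung epithelium were far above the reference in every mouse, with a mean log2 ratio of 4.50 to 5.60 over 9 markers of type II alveolar cells and 5.02 to 7.22 over 5 expressed markers of club cells.

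The unfolded protein response raises the folding capacity of the ER when unfolded proteins accumulate there. Its sensors sit in the ER membrane: IRE1 (encoded by Ern1) splices the mRNA of Xbp1, ATF6 (Atf6) is cleaved to release a transcription factor, and PERK (Eif2ak3) phosphorylates a translation initiation factor, which lowers protein synthesis while the mRNA of Atf4 is translated more. ATF6 and XBP1 raise chaperones, disulfide isomerases and degradation genes, and ATF4 raises Ddit3 (CHOP), Trib3, Chac1, Asns and other genes of amino acid supply, together known as the integrated stress response. Secretory cells, among them type II alveolar cells, club cells and plasma cells, are known for high levels of this machinery. The arrays measured mRNA levels and report neither splicing, cleavage nor phosphorylation.

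ATF6 and XBP1 are known to act through the ER stress response element (ERSE), CCAAT and CCACG separated by any 9 bases, written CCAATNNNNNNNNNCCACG. In the RefSeq promoter table (build GRCm38.p6, 250 bases before to 50 after each gene's start), which holds 29 of the 36 genes, the exact element on either strand was found for 9 genes (31%), namely Hspa5, Hsp90b1, Calr, Canx, Creld2, Dnajc3, Pdia6, Syvn1 and Derl3. It was found in 39 of all 32851 promoters (0.119%), and counted by gene for 37 of 27025 (0.137%), which include these 9. The shorter ERSE-II, ATTGGNCCACG, stood before Herpud1 and just past the start of Dnajb11, against 12 of all promoters (0.0365%). Neither the core TGACGTGG of the unfolded protein response element, held by 0.676% of all promoters, nor the composite element TGATGNAAT of ATF4 and C/EBP proteins, held by 0.965%, was found in the windows of the 29 genes. The ERSE was defined on promoters of ER chaperones, so its share here is not independent of how the genes were chosen. A match is a description of these letters in this window, and near matches were not searched. The stretches around the element are printed for the 6 genes that hold it and were lower at 162 µg than at 18 µg, and for Syvn1, which lay below the required fold in that comparison, each 5′ to 3′ along the gene with the element's fixed bases in capitals; where the capitals read CGTGG and ATTGG, the element lies on the opposite strand.
Hspa5, chr2:34772005-34772063, + strand: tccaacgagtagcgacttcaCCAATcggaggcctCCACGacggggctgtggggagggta
Hsp90b1, chr10:86705513-86705676, − strand: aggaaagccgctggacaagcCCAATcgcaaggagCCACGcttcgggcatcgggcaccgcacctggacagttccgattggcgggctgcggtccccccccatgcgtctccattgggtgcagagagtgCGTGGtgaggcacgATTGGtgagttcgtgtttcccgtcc
Calr, chr8:84847055-84847113, − strand: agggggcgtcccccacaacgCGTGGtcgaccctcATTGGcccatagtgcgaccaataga
Creld2, chr15:88819500-88819558, + strand: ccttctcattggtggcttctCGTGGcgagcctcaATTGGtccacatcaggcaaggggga
Pdia6, chr12:17266471-17266529, + strand: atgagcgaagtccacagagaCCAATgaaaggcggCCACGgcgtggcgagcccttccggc
Derl3, chr10:75893222-75893280, + strand: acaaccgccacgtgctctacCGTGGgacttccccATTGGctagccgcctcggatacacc
Syvn1, chr19:6046512-6046570, + strand: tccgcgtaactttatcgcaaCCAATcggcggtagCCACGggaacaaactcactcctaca
Hsp90b1 held the element in both orientations, and the element ended between 25 and 193 bases before the start in these 7 genes.

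**Figure D1:**
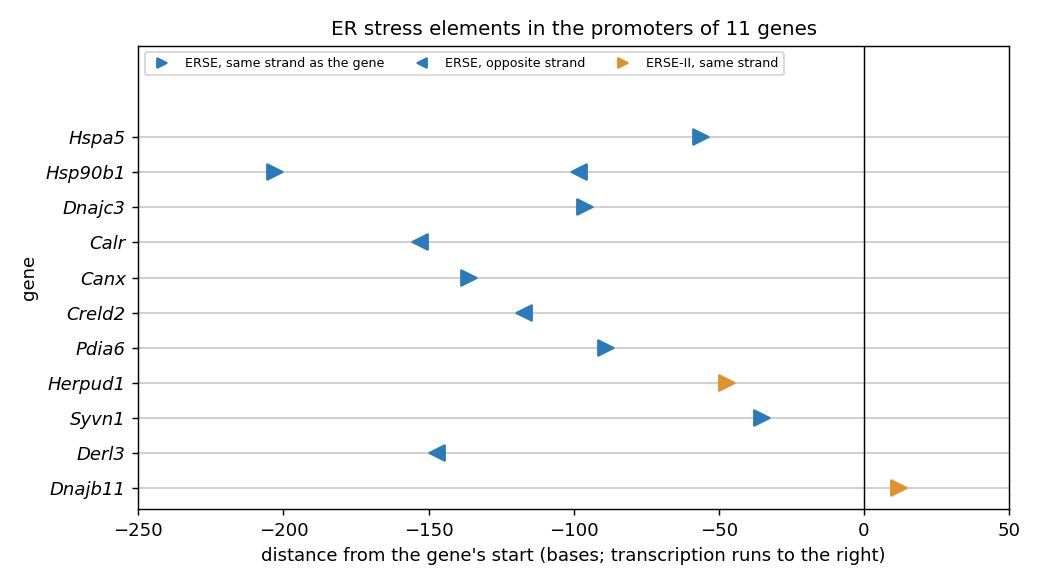
Positions of the ERSE (blue) and ERSE-II (orange) in the promoters of the 11 genes that hold one, as distance in bases from the gene's start; the triangle points along the strand of the element. All but the element of Dnajb11 lie before the start.

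The arrays lay on 7 slides, with 1 slide for each scan day, and slide was a term of the fit. The Cy5 signal of the median spot was 1.18 to 2.50 times its local background, and the median of a group was highest in controls (2.00) and lowest at 18 µg (1.44), so precision was lower for dim probes. No pair of arrays correlated above 0.953, so none was counted as a duplicate. Changes were tested with limma across 55681 probes and are given as log2 fold changes with their standard error (SE) and Benjamini-Hochberg adjusted p. To pass, a gene needed a 1.5-fold change or more with an adjusted p no higher than 0.05. The 3 doses were compared with the same 5 controls.

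At 18 µg, 3 of the 35 genes rose and none fell. They were Sdf2l1 (log2 fold change 1.92), a cofactor of the chaperone BiP, Derl3 (1.28), a channel component of ER-associated degradation, and Hyou1 (0.87), a large chaperone that recharges BiP. Over all expressed genes 0.634% rose and 2.08% passed in either direction. The log2 fold change was positive in 31 of the 35 genes and in 46.4% of all expressed genes, with medians of 0.37 and -0.02. In limma 21 of the 35 had an unadjusted p under 0.05, as did 3667 of the 16407 expressed genes. In 9 genes (Hspa5, Sdf2l1, Hyou1, Calr, Canx, Manf, Pdia4, Xbp1 and Chac1) every 18 µg mouse lay above all 5 controls, as in 1.36% of all expressed genes. On the 4 slides with both groups the 3 genes were higher at 18 µg on all 4. Leaving out single mice gave 0 genes (without control replicate 1, 4 or 5, or 18 µg replicate 3, 4 or 5), 1 gene (without 18 µg replicate 1 or 54 µg replicate 2) or up to 4. With arrays centred on their median in place of loess the median over all genes at 18 µg moved to -0.27 and that of the 35 genes to -0.05, which lay 0.21 above it, and none passed. None passed in the deposited log2 table either, where the adjusted p was 0.0617 for Derl3, 0.0621 for Hyou1 and 0.068 for Sdf2l1.

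At 54 µg the only gene that rose was Atf4 (0.76), the transcription factor of the integrated stress response, and none fell. Over all expressed genes 0.25% rose and 0.39% passed in either direction. The median log2 fold change of the 35 genes was 0.17, and 29 were positive, where 47.4% of all expressed genes were. Hyou1 and Xbp1 were the genes in which every 54 µg mouse lay above all controls, as in 1.35% of all expressed genes. At 162 µg Hsp90b1 (-0.89), the ER member of the HSP90 chaperone family, fell and no gene rose, while 3.54% of all expressed genes fell and 6.88% passed in either direction. The median of the 35 genes was 0.12, with 20 positive, where 48.8% of all expressed genes were. That median became -0.19 with median centring, where the median of all genes also became -0.19. Canx and Ppp1r15a lay above all controls in every 162 µg mouse, as did 3.49% of all expressed genes, and none of the 35 lay below all controls in every mouse, as did 4.15%. Without single mice the call of Atf4 at 54 µg was lost in 12 of 22 fits and that of Hsp90b1 at 162 µg in 17 of 22.

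The comparison of the highest with the lowest dose gave the most calls. At 162 µg, 8 of the 35 genes were lower than at 18 µg and none was higher: the chaperones Hspa5, Hsp90b1, Calr and Creld2, the disulfide isomerases Pdia3 and Pdia6, and Edem1 and Derl3 of ER-associated degradation, by 0.69 to 1.34 on the log2 scale. Over all expressed genes 1.66% were lower and 5% passed in either direction. The change was negative in 28 of the 35 genes, with a median of -0.35 against 0.01 over all expressed genes, of which 51.3% were positive. In limma 23 of the 35 had an unadjusted p under 0.05, as did 4360 of the 16407 expressed genes. Every 162 µg mouse lay below every 18 µg mouse in Hspa5, Hsp90b1, Calr, Creld2, Pdia3 and Syvn1, as in 0.993% of all expressed genes. On the 5 slides that carried both doses, each of the 8 genes was lower at 162 µg on all 5, and 6 of the 8 (all but Hspa5 and Derl3) passed whichever mouse was left out. With single mice left out, 6 (without 18 µg replicate 4) to 11 (without 54 µg replicate 1) genes passed, and 8 passed in the deposited log2 table, but none passed after median centring, where the median was -0.21 against 0.05 over all genes, or without normalization, where it was -0.07 against 0.18. The count was 5 without the arrays of slide 4 and 3 without those of slide 7.

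**Figure D2:**
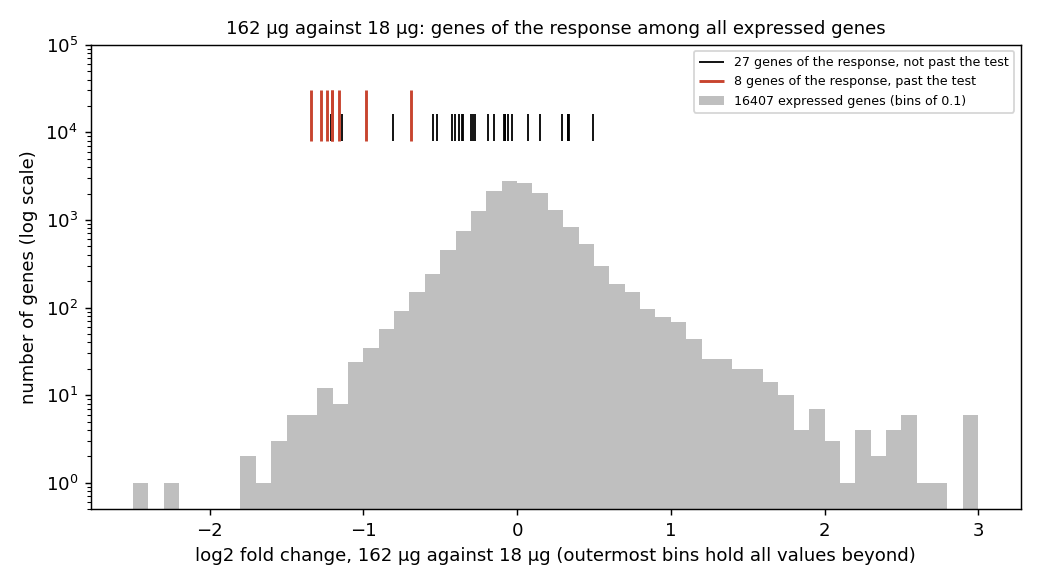
Log2 fold changes of 162 µg against 18 µg for the 16407 expressed genes (grey bars, number of genes on a log scale, bins of 0.1), with the 35 genes of the response as vertical lines at their values. The 8 genes that passed (red) lie between -1.34 and -0.69, and 28 of the 35 lines lie below 0.

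Of the 8 genes, 6 hold the exact ERSE printed above, and Pdia3 and Edem1 do not. The 9 genes with the element had a median difference between 162 µg and 18 µg of -1.20, all of them negative, from -1.34 in Pdia6 to -0.08 in Canx. The 19 expressed genes of the response that are in the promoter table without the element had a median of -0.19, with 13 negative, from -1.21 in Sdf2l1 to 0.49 in Herpud1. The sensors, transcription factors and stress response targets in the promoter table all lack the element, so the element and the role of a gene cannot be told apart here. Expressed genes outside the 36 that hold the element numbered 12, with a median of -0.08, and none of them passed between 162 and 18 µg. They include Ero1b, a folding and oxidation gene of the wider pathway, so they are not all unrelated to the response. These are descriptions, and no test was made between the groups of promoters. Between 162 µg and 54 µg none of the 35 genes passed in limma, nor did any of all expressed genes (0%), where 9 of the 35 and 2043 of the 16407 had an unadjusted p under 0.05. Without 54 µg replicate 3, 7 of the 35 passed, all lower at 162 µg, and 1.04% of all expressed genes passed in either direction.

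**Figure D3:**
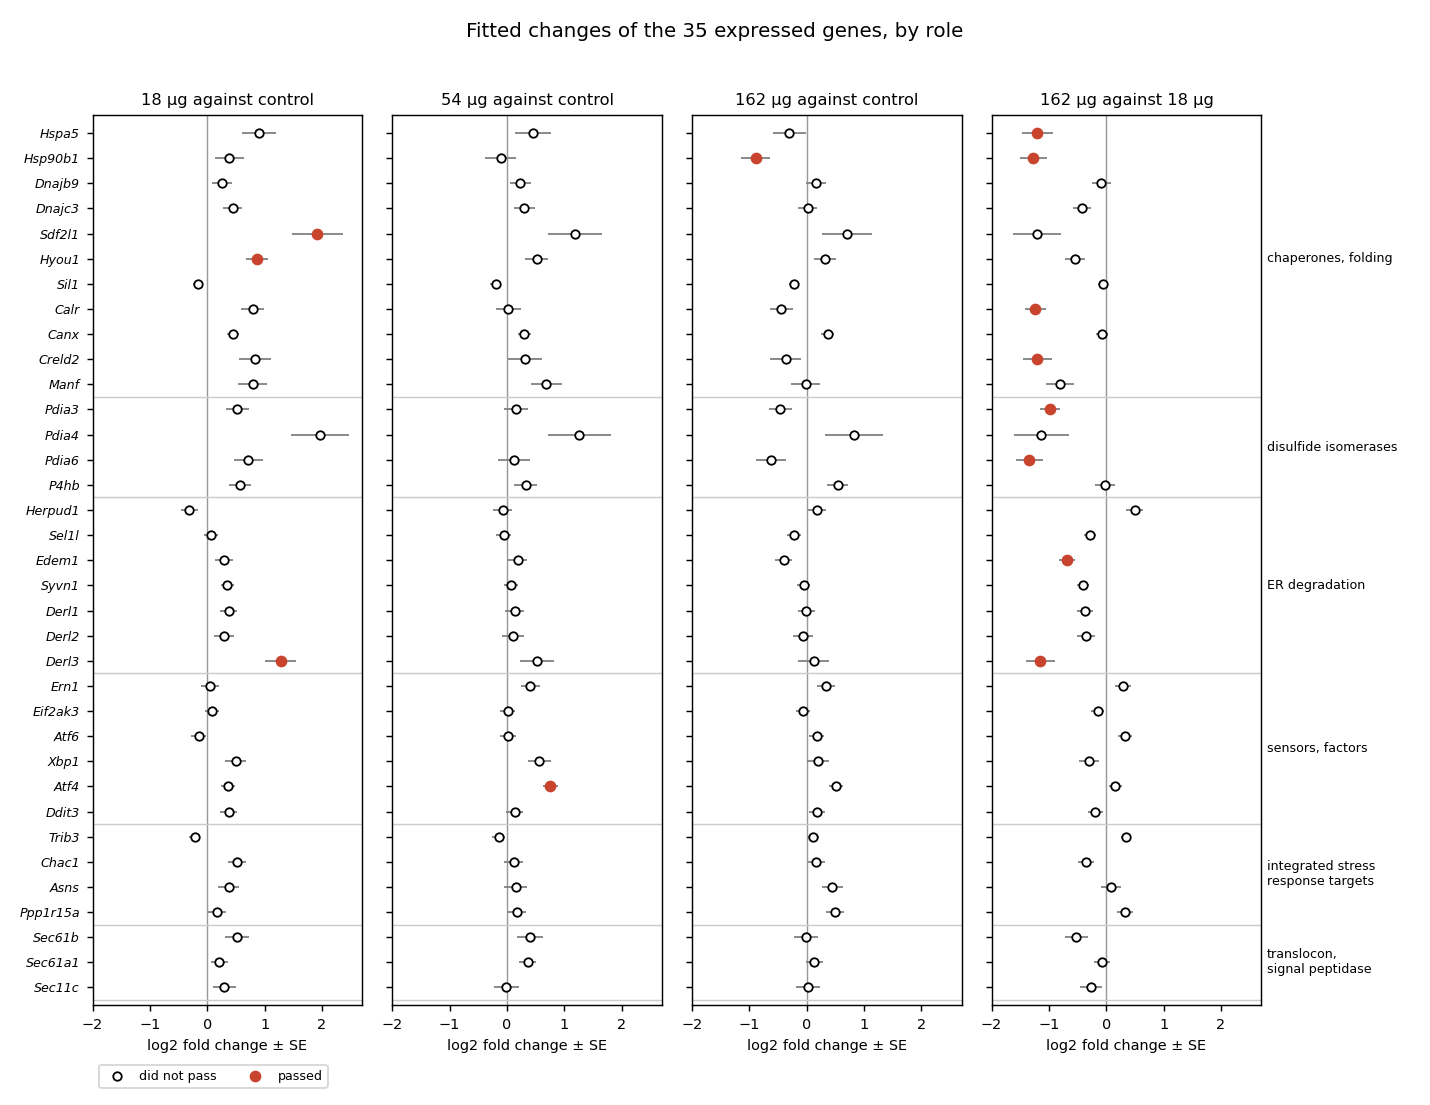
Fitted log2 fold changes (x axes) with their SE for the 35 expressed genes (rows, grouped by role) in the comparisons of 18, 54 and 162 µg with control and of 162 µg with 18 µg; filled red points passed the test. The chaperones and disulfide isomerases shift to the right at 18 µg and to the left in the comparison of the doses, where 8 points are filled.

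The chaperones and folding factors had a median log2 fold change of 0.79 at 18 µg, where 2 of 11 expressed genes rose, 0.30 at 54 µg and -0.02 at 162 µg (0.12 in the Cy5 channel alone), where 1 fell. All 11 had a negative difference between 162 and 18 µg, with a median of -0.81, and 4 passed. Hspa5 encodes BiP, the main ER chaperone and the brake on the stress sensors. Its log2 ratio was 0.12, 0.21, 0.23, 0.36 and 0.42 in the 5 controls, 0.85 to 2.04 with a median of 1.17 in the 6 mice at 18 µg, 2.07, 0.34, 0.06, 0.56 and 1.07 at 54 µg and -0.50 to 0.53 with a median of -0.12 at 162 µg. All 18 µg mice lay above the controls and above the 162 µg mice, and 4 of the 6 mice at 162 µg lay below the lowest control. The fitted change of Hspa5 was 0.90 (SE 0.29, adjusted p = 0.128 in limma) at 18 µg, which did not pass, -0.30 (SE 0.29, adjusted p = 0.691 in limma) at 162 µg, and -1.20 (SE 0.27, adjusted p = 0.0168 in limma) from 18 to 162 µg. That last call was lost without 18 µg replicate 4 or 5.

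Hsp90b1 (GRP94) had log2 ratios of 0.16, -0.17, 0.07, -0.16 and 0.44 in controls, 0.13 to 1.26 with a median of 0.54 at 18 µg, 1.25, -0.16, -0.51, 0.23 and 0.27 at 54 µg and -1.34 to -0.05 with a median of -0.81 at 162 µg. At 162 µg 5 of 6 mice lay below all controls, while the 18 µg mice overlapped the controls. It changed by -0.89 (SE 0.26, adjusted p = 0.0479 in limma) at 162 µg against controls and by -1.27 (SE 0.24, adjusted p = 0.00546 in limma) against 18 µg. Calr, a calcium-binding chaperone of glycoproteins, ran from 0.72 to 1.31 with a median of 1.03 at 18 µg, above controls of 0.22, 0.15, -0.07, 0.08 and 0.41, and from -0.69 to 0.26 with a median of -0.31 at 162 µg. The 54 µg values of Calr were 0.89, 0.29, -0.60, 0.37 and 0.38, which spanned the range of the controls. Its difference between 162 and 18 µg was -1.24 (SE 0.19, adjusted p = 0.00141 in limma). Creld2, a secreted ER stress protein, was at -0.90, -0.58, -0.66, -0.24 and -0.67 in controls, -0.39 to 0.86 with a median of 0.21 at 18 µg, 0.73, -0.48, -1.07, -0.68 and -0.06 at 54 µg and -1.28 to -0.62 with a median of -1.07 at 162 µg, a difference of -1.20 (SE 0.25, adjusted p = 0.0116 in limma) between the high and the low dose.

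Sdf2l1 had the largest change among the genes that passed at 18 µg, 1.92 (SE 0.44, adjusted p = 0.0423 in limma). Its log2 ratios were -1.97, -1.26, -1.01, -0.72 and -1.04 in controls, -0.38 to 3.00 with a median of 0.33 at 18 µg, 1.00, -0.79, -1.45, -0.79 and -0.05 at 54 µg and -1.62 to 1.84 with a median of -1.13 at 162 µg. All 6 mice at 18 µg exceeded the controls, but replicate 3 stood far above the rest of its group both at 18 µg and at 162 µg, and both of these arrays were on slide 4. At 162 µg the unscaled Cy5 signal of Sdf2l1 was 876.5 in replicate 3, against 1192 in replicate 1 (log2 ratio -1.16). The median Cy5 spot was 1.87 times its local background on the array of replicate 3 and 2.50 times on that of replicate 1. At 18 µg replicate 3 had the highest Cy5 signal of its group, 2467, against 1110 in control replicate 4 on slide 4 (log2 ratio -0.72). The part of the reference channel in these ratios was not tested. Without the arrays of slide 4 the change was 1.44 (adjusted p = 0.153 in limma), and without those of slide 7 it was 2.03 (adjusted p = 0.182). Hyou1 was at -0.29, -0.11, -0.15, -0.65 and -0.25 in controls, 0.12 to 1.06 with a median of 0.54 at 18 µg, 0.81, 0.13, -0.10, 0.39 and -0.01 at 54 µg and -0.14 to 0.19 with a median of -0.03 at 162 µg. It rose by 0.87 (SE 0.19, adjusted p = 0.0345 in limma) at 18 µg, and the 54 µg mice also lay above all controls, though that change of 0.52 had an adjusted p of 0.439. The probe of Hyou1 was dim, with Cy5 signals of 93 to 330, against 63.5 to 98 for Dnajb11, which was not expressed.

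Manf, a secreted ER stress factor, had a fitted change of 0.79 at 18 µg, 0.69 at 54 µg and -0.02 at 162 µg, and its difference of -0.81 between 162 and 18 µg had an adjusted p of 0.0685. Canx, the membrane-bound partner of Calr, had similar fitted changes at the 3 doses, 0.44, 0.30 and 0.36 against controls. At 18 µg its adjusted p was 0.049, but the change was under 1.5-fold. The co-chaperones Dnajb9 and Dnajc3 had changes of 0.02 to 0.44 against controls, and Sil1, which recharges BiP as Hyou1 does, had -0.16, -0.20 and -0.23. None of these passed.

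**Figure D4:**
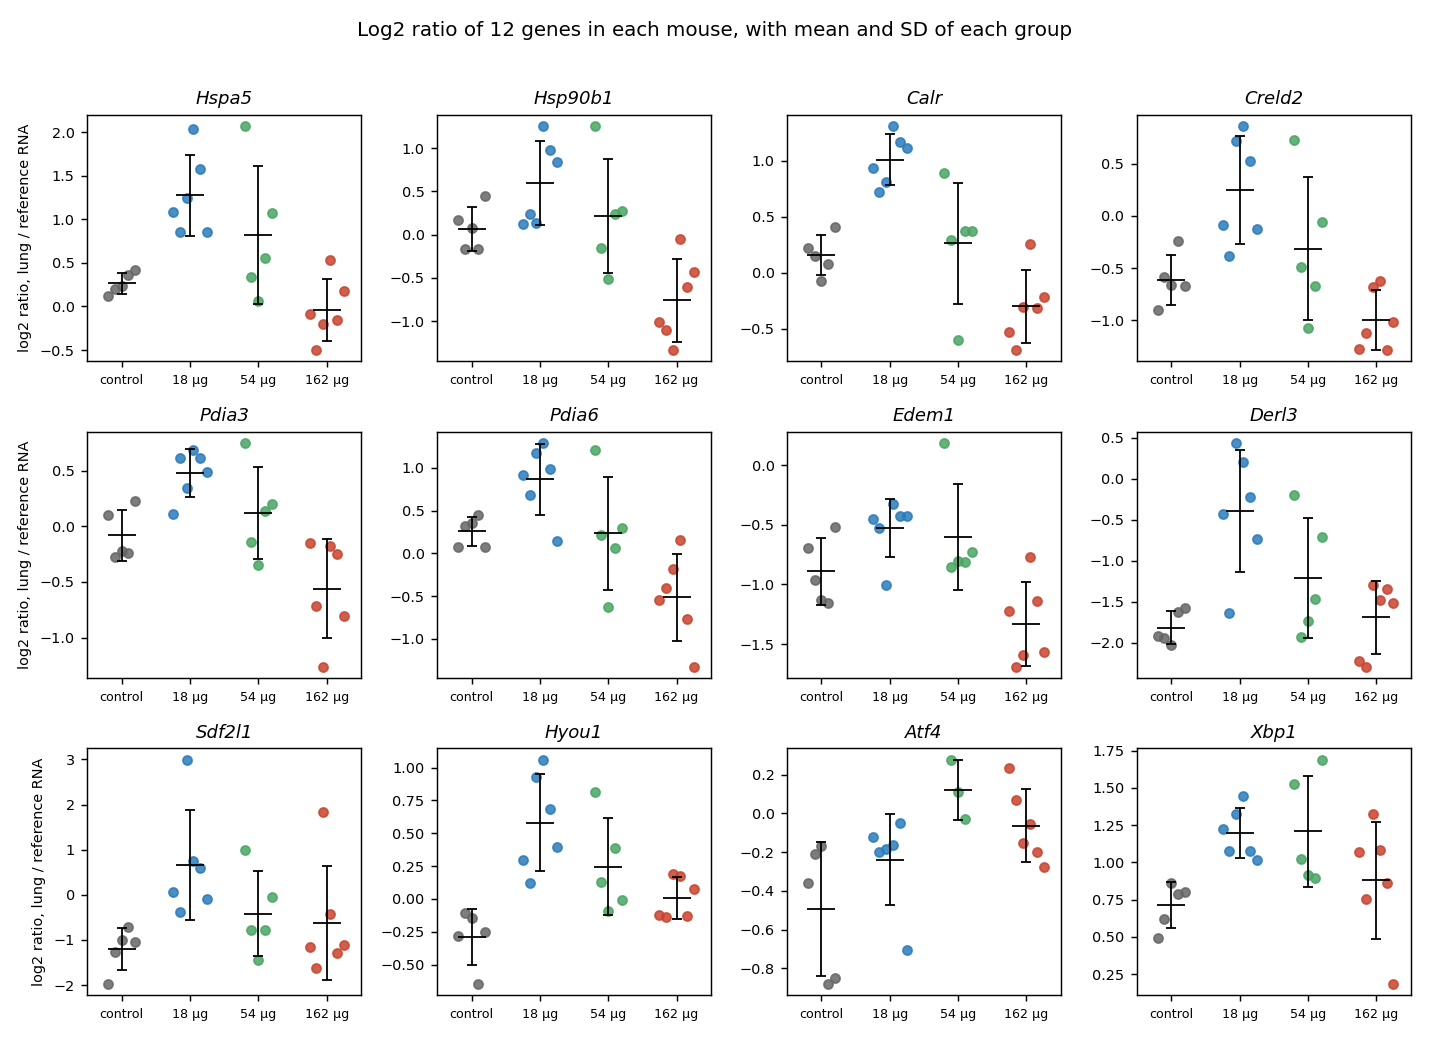
Log2 ratio of lung to reference RNA (y axes) in each mouse (points) for 12 genes by dose (x axes), with the mean (bar) and SD of each group. The 8 genes that were lower at 162 µg than at 18 µg fill the upper rows; 1 mouse of 5 at 54 µg lies at the level of the highest 18 µg mice in most panels.

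The protein disulfide isomerases, which form and exchange disulfide bonds in the ER, had a median change of 0.64 at 18 µg, 0.24 at 54 µg and 0.04 at 162 µg (-0.26 with median centring), and none passed against controls. Between 162 and 18 µg all 4 differences were negative, with a median of -1.06, and 2 passed. Pdia3, the partner of Calr and Canx, was at 0.10, -0.27, -0.22, -0.24 and 0.23 in controls, 0.11 to 0.69 with a median of 0.56 at 18 µg, 0.75, -0.14, -0.34, 0.13 and 0.20 at 54 µg and -1.26 to -0.15 with a median of -0.48 at 162 µg, a difference of -0.98 (SE 0.18, adjusted p = 0.00495 in limma) between 162 and 18 µg. The values of Pdia6 were 0.08, 0.33, 0.35, 0.45 and 0.08 in controls, 0.14 to 1.29 with a median of 0.95 at 18 µg, 1.22, 0.21, -0.62, 0.06 and 0.30 at 54 µg and -1.33 to 0.15 with a median of -0.48 at 162 µg. It fell by 1.34 on the log2 scale between 18 and 162 µg (SE 0.24, adjusted p = 0.00419 in limma), and the second probe of the gene fell by 1.06 (adjusted p = 0.00603). For Pdia6, 1 mouse at 18 µg (0.14) lay within the range of the 162 µg mice. Pdia4 had the widest spread of the 35 genes, from -3.14 in control replicate 1 to 2.86 in 18 µg replicate 3, and its change of 1.96 (SE 0.51, adjusted p = 0.0638 in limma) at 18 µg did not pass. P4hb, the classical isomerase, had similar fitted changes at 18 µg (0.57) and 162 µg (0.54), with adjusted p of 0.133 and 0.105.

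Genes of ER-associated degradation, which returns misfolded proteins to the cytosol for destruction, had a median change of 0.29 at 18 µg (-0.14 with median centring, where the median of all genes was -0.27), 0.10 at 54 µg and -0.06 at 162 µg. Derl3 was the member that rose at 18 µg, by 1.28 (SE 0.27, adjusted p = 0.0304 in limma). It was at -1.91, -1.94, -2.02, -1.63 and -1.57 in controls, -1.63 to 0.44 with a median of -0.33 at 18 µg, -0.19, -1.93, -1.74, -1.46 and -0.71 at 54 µg and -2.29 to -1.29 with a median of -1.50 at 162 µg. At 18 µg 5 of 6 mice lay above all controls and the lowest, replicate 2, lay among them. Against 18 µg the difference at 162 µg was -1.16 (SE 0.25, adjusted p = 0.0142 in limma), a call lost without 18 µg replicate 3 or 4. Edem1, which hands misfolded glycoproteins over for degradation, was at -0.69, -0.96, -1.13, -1.15 and -0.52 in controls, -1.01 to -0.33 with a median of -0.44 at 18 µg, 0.19, -0.86, -0.81, -0.81 and -0.73 at 54 µg and -1.69 to -0.77 with a median of -1.39 at 162 µg, and its difference between 162 and 18 µg was -0.69 (SE 0.14, adjusted p = 0.0105 in limma). The groups at 18 and 162 µg overlapped in 1 mouse each.

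The ubiquitin ligase gene Syvn1 (HRD1) differed by -0.41 between 162 and 18 µg with an adjusted p of 0.0474, under the required fold, and every 162 µg mouse lay below every 18 µg mouse. Its adaptor Sel1l had -0.29 and Derl1 and Derl2 -0.37 and -0.36 in that comparison, and none of them passed. Other probes differed in sign, with 0.22 for the second probe of Derl1 and 0.14 and -0.24 for the other probes of Derl2. Herpud1, a membrane adaptor of the same ligase, was the gene with the largest positive difference, 0.49 (adjusted p = 0.0601 in limma), opposite in sign to Syvn1 and Sel1l, and was higher at 162 µg on all 5 shared slides.

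The 6 sensors and transcription factors had a median change of 0.23 at 18 µg (-0.17 with median centring), 0.27 at 54 µg and 0.19 at 162 µg (-0.08 with median centring), and no sensor gene passed at any dose. Ern1 was at 0.05, -0.33, -0.48, -1.19 and -0.99 in controls, -1.09 to -0.31 with a median of -0.83 at 18 µg, 0.20, -0.65, -0.36 and -0.85 in 4 mice with a value at 54 µg and -0.92 to 0.50 with a median of -0.63 at 162 µg, and its largest change was 0.41 (SE 0.17, adjusted p = 0.462 in limma) at 54 µg. Eif2ak3 had log2 ratios of 0.49, 0.41, 0.60, 0.19 and 0.28 in controls, -0.13 to 0.89 with a median of 0.49 at 18 µg, 0.56, 0.21, 0.36, 0.50 and 0.33 at 54 µg and -0.21 to 0.67 with a median of 0.29 at 162 µg. Every group of Eif2ak3 overlapped the controls, and its fitted changes lay between -0.07 and 0.09, with SE of 0.12 to 0.13. Atf6 was at -0.02, 0.05, -0.20, -0.30 and -0.27 in controls, -0.98 to 0.07 with a median of -0.21 at 18 µg, -0.16, 0.17, 0.04, -0.21 and -0.23 at 54 µg and -0.33 to 0.46 with a median of 0.01 at 162 µg, with changes of -0.15, 0.02 and 0.18. None of these passed, which does not show that the levels did not differ.

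Of the transcription factors, Xbp1, the target of IRE1 splicing, was at 0.49, 0.62, 0.86, 0.79 and 0.80 in controls, 1.02 to 1.45 with a median of 1.15 at 18 µg, 1.52, 1.02, 0.91, 0.89 and 1.69 at 54 µg and 0.19 to 1.32 with a median of 0.97 at 162 µg. Every mouse at 18 and 54 µg lay above all controls, but the changes of 0.49 (SE 0.19, adjusted p = 0.2 in limma) and 0.56 (SE 0.20, adjusted p = 0.367 in limma) did not pass. Atf4 was at -0.36, -0.21, -0.17, -0.88 and -0.85 in controls and -0.71 to -0.05 with a median of -0.18 at 18 µg. At 54 µg it was at 0.28, 0.11 and -0.03 in the 3 mice with a value, since the spots of the other 2 were marked as outliers, and at 162 µg it was -0.28 to 0.23 with a median of -0.11. It rose by 0.76 (SE 0.13, adjusted p = 0.0359 in limma) at 54 µg, a call lost with the outlier spots kept (0.57, adjusted p = 0.194), without the slide term (0.61, adjusted p = 0.254) and in the deposited log2 table (0.63, adjusted p = 0.109). Its change of 0.52 (SE 0.12, adjusted p = 0.02 in limma) at 162 µg was under 1.5-fold. The dimmer of its probes changed by 0.73 (adjusted p = 0.0210) at 162 µg and passed. Ddit3, the stress factor CHOP, was at -1.67, -1.63, -1.81, -1.59 and -1.41 in controls, -1.47 to -0.74 with a median of -1.32 at 18 µg, -1.18, -1.41, -1.54, -1.70 and -1.48 at 54 µg and -1.61 to -1.15 with a median of -1.46 at 162 µg, with fitted changes of 0.37, 0.13 and 0.18, none of which passed.

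The targets of the integrated stress response act downstream of ATF4, and none of the 4 passed in any comparison. Their median change was 0.27 at 18 µg (-0.15 with median centring), 0.13 at 54 µg and 0.31 at 162 µg (-0.01 without normalization). Their difference between 162 and 18 µg was positive in 3 of 4, with a median of 0.20. Ppp1r15a (GADD34), which reverses the block on translation, was at -0.16, 0.04, 0.07, -0.01 and 0.08 in controls and 0.36 to 1.34 with a median of 0.68 at 162 µg, where every mouse lay above all controls and the change was 0.49 (SE 0.15, adjusted p = 0.068 in limma). Trib3, a pseudokinase that restrains ATF4, differed by 0.34 between 162 and 18 µg with an adjusted p of 0.048, under the required fold, and was higher at 162 µg on all 5 shared slides. Chac1, which degrades glutathione, and Asns, the asparagine synthetase, had changes of 0.52 and 0.37 at 18 µg and 0.17 and 0.45 at 162 µg. The translocon genes Sec61a1 and Sec61b and the signal peptidase gene Sec11c, which carry new proteins into the ER and trim them, had changes between -0.01 and 0.51 against controls, and none passed.

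**Figure D5:**
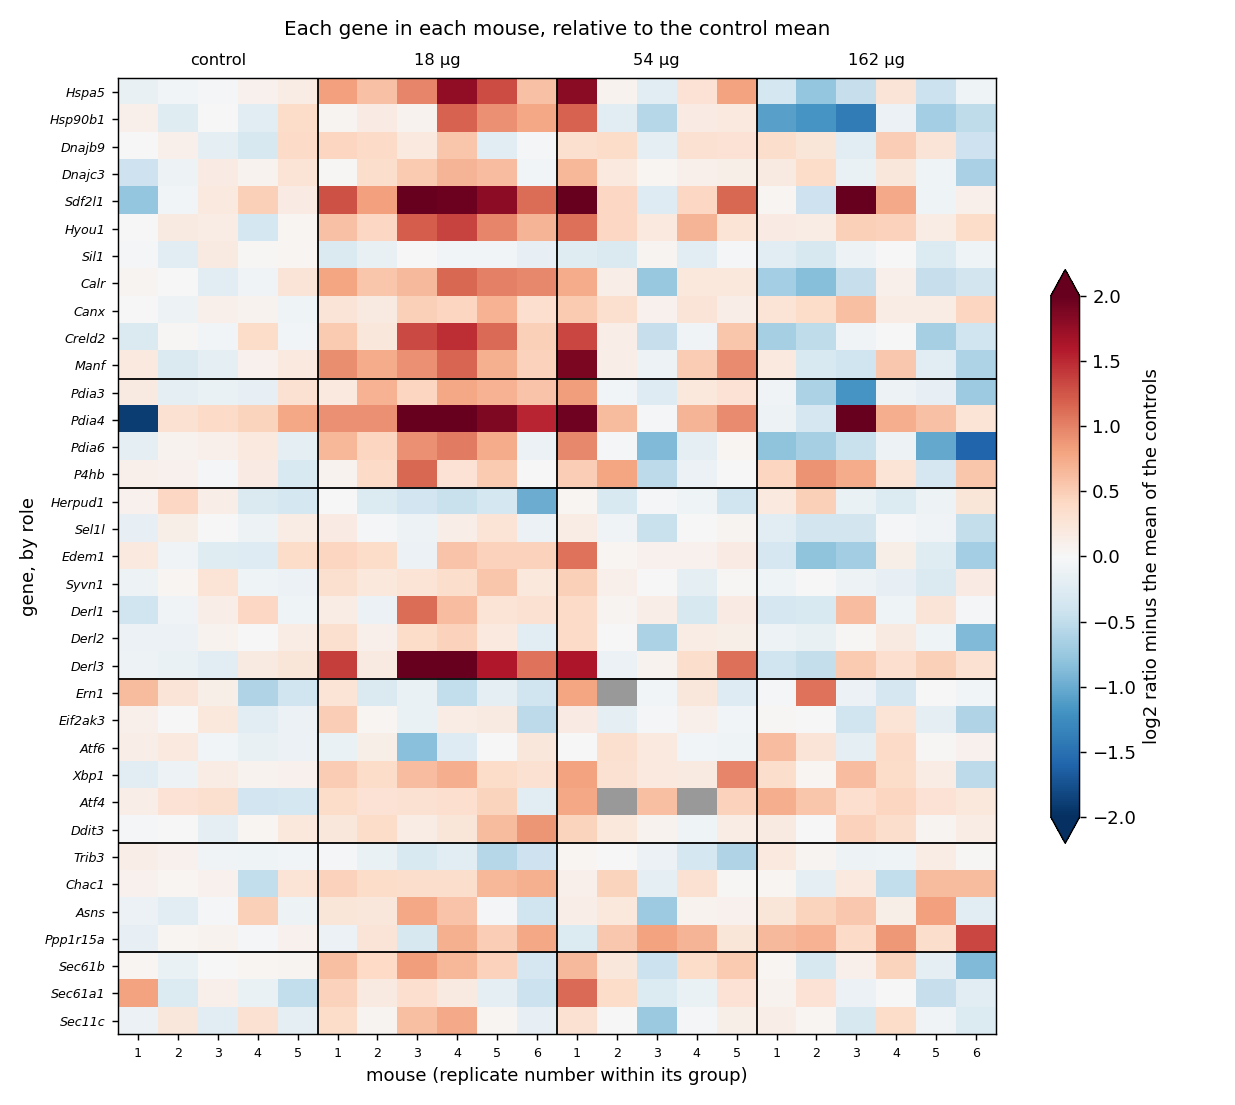
Log2 ratio of each of the 35 expressed genes (rows, by role) in each of the 22 mice (columns, by dose) minus the mean of the controls; red is higher, blue lower, grey has no value, and colours end at 2 and -2. The chaperones and disulfide isomerases are mostly red at 18 µg and in replicate 1 of the 54 µg mice, and mostly blue or pale at 162 µg.

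Within groups part of the chaperones varied with Hspa5. Deviations from the group means were compared with those of Hspa5 over 22 mice, which share the reference RNA and the slides. Pearson's r was 0.86 for Creld2 (Spearman's rho 0.80), 0.83 for Hsp90b1 (0.72), 0.81 for Manf (0.66), 0.80 for Calr (0.64) and 0.75 for Derl3 (0.77). Of 16406 other expressed genes, 4 reached 0.8 (0.0244%), namely these first 3 and Ccdc167 (0.84), a gene of unassigned function named here after its value was seen. Other chaperones had lower values, with 0.69 for Hyou1 (0.44 without the 2 mice named below), 0.45 for Dnajc3, 0.45 for Sdf2l1, 0.37 for Canx, 0.23 for Dnajb9 and 0.14 for Sil1. The median r was 0.41 over the other 34 genes of the response and 0.01 over all genes. It was -0.21 for Ppp1r15a, -0.09 for Trib3, -0.10 for Chac1 and 0.11 for Atf4 (20 mice). Without the 2 mice farthest from the median, 54 µg replicate 1 and 18 µg replicate 4, r was 0.74 for Creld2, 0.70 for Hsp90b1, 0.67 for Manf and 0.73 for Calr. In 54 µg replicate 1 Hspa5 was at 2.07, Manf at 1.01 and Edem1 at 0.19, each the highest value of all 22 mice.

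Other genes of the pathway were taken from a list of 121, of which 118 were expressed. At 18 µg 2 of them rose, where 0.634% of all expressed genes did, and at 54 µg 1 rose, where 0.25% did. At 162 µg 10 rose and 2 fell, where 3.35% of all expressed genes rose and 3.54% fell. Of the 10 that rose at 162 µg, 5 were among the 30 expressed ATF4 targets and amino acid genes: Gdf15, a stress cytokine, log2 fold change 1.07 (adjusted p = 0.000282) in limma, Psat1 of serine synthesis 1.07 (adjusted p = 0.000727), Slc3a2 1.10 (adjusted p = 0.00782) and Slc7a5 0.68 (adjusted p = 0.0106), which together form an amino acid transporter, and Ddit4, an inhibitor of growth signalling, 1.31 (adjusted p = 0.0336). Gdf15 also rose at 18 µg by 0.68 (adjusted p = 0.0224) and at 54 µg by 0.77 (adjusted p = 0.0359), and Psat1 at 18 µg by 0.81 (adjusted p = 0.022). Ddit4 and Slc3a2 were higher at 162 µg than at 18 µg, by 1.69 (adjusted p = 0.00653) and 0.87 (adjusted p = 0.0263).

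Among 19 other expressed folding and oxidation genes, the disulfide isomerase Pdia5 -0.71 (adjusted p = 0.00725) and the folding cofactor Cnpy2 -0.66 (adjusted p = 0.00309) fell at 162 µg, and the prolyl isomerase Fkbp14 0.93 (adjusted p = 0.0032) and the sulfhydryl oxidase Qsox1 0.78 (adjusted p = 0.0191) rose. Against 18 µg, 6 of the 118 were higher, where 3.34% of all expressed genes were, and 4 were lower, where 1.66% were. Pdia5 and Cnpy2 were again lower there and Fkbp14 and Qsox1 again higher. Of the remaining lists, Ufd1 of the degradation machinery rose by 0.99 (adjusted p = 0.000839) at 162 µg, and 2 of 31 genes of the translocon and secretory pathway and 0 of 22 of the signalling genes passed there, where 6.88% of all expressed genes did. The median of all 118 was 0.15 at 18 µg and 0.07 at 162 µg.

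Markers of other cell types were read beside these results. Over all expressed genes 0.634% rose at 18 µg, 0.25% at 54 µg and 3.35% at 162 µg. At 162 µg 3.54% fell, and 1.66% were lower than at 18 µg. The plasma cell list, of which 9 of 10 genes were expressed and which shares Derl3 with the genes above, had a mean log2 ratio per mouse of -1.63 to -1.28 in controls and -1.24 to -0.55 at 18 µg. At 54 µg it was -1.55 to -1.19, and at 162 µg it was -1.78 to -1.12. Every 18 µg mouse lay above all controls, and 3 of the 9 genes rose at 18 µg and were lower at 162 µg than at 18 µg: Derl3, Irf4, at 18 µg 0.95 (adjusted p = 0.0334), and Pou2af1, at 18 µg 0.86 (adjusted p = 0.0142). Of the others, none of which passed, the changes at 18 µg were 0.97 for Jchain (adjusted p = 0.114), 0.39 for Mzb1 (adjusted p = 0.196), 0.30 for Txndc5, 0.0063 for Sdc1 and -0.19 for Prdm1, all well above background on 22 arrays. Tnfrsf17 was well above background on 3 arrays (-0.10), and Fkbp11, which was not expressed, on none. B cell markers ranged from 0.95 to 1.54 in controls, from 0.68 to 1.67 in the 18 µg mice and from -0.13 to 0.76 in the 162 µg mice, where 3 of 6 fell, and 4 of 6 were lower than at 18 µg. Neutrophil markers ranged from 1.54 to 4.14 in controls, with a median of 2.03, and the next highest control after replicate 2 (4.14) was at 2.04. They ranged from 1.75 to 2.58 (median 1.98) in the 18 µg mice and from 1.87 to 4.42 (median 2.91) in the 162 µg mice. At 162 µg 1 of 11 expressed neutrophil markers rose, and 9 had a positive change, with a median log2 fold change of 0.64. Of the 9 monocyte and recruited macrophage markers Arg1 rose at all 3 doses and Spp1 at 162 µg. The changes of this list were positive in 5 of 9 at 18 µg (median 0.13) and at 162 µg (0.11), and Ccr2 (-0.59 and -0.51) and Fcgr1 (-0.53 and -0.57) were negative at both. Of the 7 alveolar macrophage markers Chil3 rose at 18 µg and Marco at 162 µg. Positive changes numbered 5 at 18 µg, where Fabp4 (-0.89) and Krt79 (-0.33) were negative, and 7 at 162 µg. Of the 6 goblet cell markers none passed, and positive changes numbered 1 at 18 µg (median -0.61), 6 at 54 µg (0.38) and 5 at 162 µg (0.10). Their mean log2 ratio was 5.39 in 18 µg replicate 3, and the next highest of that group was 1.96 in replicate 4. The part of these cell types in the changes of the chaperones and Derl3 was not tested. No type II alveolar cell marker passed in any comparison, and of the club cell markers Aldh1a1 changed at 18 µg by -1.11 (adjusted p = 0.031) and Cyp2f2 fell at 162 µg (adjusted p = 0.00507). Of the 5 expressed club cell markers 0 had a positive change at 18 µg (median -0.53) and 1 at 162 µg (-0.47).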

How the data were processed

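Right lung RNA of 22 mice was measured on dual-colour Agilent whole-genome arrays. The deposited intensity values were the Cy5 and Cy3 signals that the authors read from the scans with Feature Extraction (version 10.7.3.1 in the file headers). A table of log2 ratios as normalized by the authors came with them, whose normalization the sources used here do not fully give, and it served as an alternative. As in the study's methods, median spot signals were used without background subtraction and replicate spots were reduced to their median. Loess within each array (span 0.3, control and outlier spots at weight 0) was chosen here, and limma took the place of the study's MAANOVA. Probes (55681) were tested in R 4.3.3 with limma 3.58.1, with dose and slide (7) as terms, leaving 12 residual degrees of freedom, and Benjamini-Hochberg adjusted p-values. A gene passed at an adjusted p of at most 0.05, a change of at least 1.5-fold and expression, defined as a Cy5 signal above the trimmed mean plus 3 trimmed SD (5% trimmed) of 308 negative control spots on 80% of the arrays of a group. Of the probes, 26413 were named through RefSeq accessions, giving 20018 genes, each taken by its brightest probe. No counts exist, so the number of arrays and the signal limit the precision. The fit was tested on simulated data.

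Values by mouse are given for every member that passed and for the sensors and transcription factors, and at most 10 other pathway genes are named, by smallest adjusted p. The members and lists were chosen with earlier results of these data known. Alternatives covered background correction, normalization, channel, the deposited table, slide, replicate number, samples fitted, outlier spots, expression filter, fold, probe and each mouse left out.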

Additional observations from a re-analysis of the deposited data

Results flagged for a closer look

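Single mice stood apart from the rest of their group in 16 of 139 groups of values, where chance gives about 5%. All values are log2 ratios of lung to reference. Replicate 3 of the 18 µg group was far above its group in Sdf2l1 (3.00) and Pdia4 (2.86) and below it in Edem1 (-1.01), and replicate 3 of the 162 µg group was above its group in Sdf2l1 (1.84) and Pdia4 (2.46). Both arrays were on slide 4. In 162 µg replicate 3 the unscaled Cy5 signals were 876.5 for Sdf2l1 and 397 for Pdia4. They were 1192 and 637 in 162 µg replicate 1, whose log2 ratios were -1.16 and -1.34. The array of replicate 1 was the brighter, with a median Cy5 spot at 2.50 times its local background against 1.87 in replicate 3. Unscaled signals therefore do not show whether the lung level was raised. Replicate 1 of the 54 µg group was above its group in Dnajc3 (3.05) and Edem1 (0.19), and replicate 3 of the same group was below it in Dnajb9 (0.92) and Asns (-3.42). Among controls, Pdia4 was low in replicate 1 (-3.14), Sec61b was low in replicate 2 (-0.019) and Asns was high in replicate 4 (-2.23). Replicate 6 of the 18 µg group was low in Atf4 (-0.71) and Sec61b (-0.22). At 162 µg, Derl2 was low in replicate 6 (-0.17) and Ern1 was high in replicate 2 (0.50). The causes were not tested.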

How the results depend on the processing

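No gene that passed changed its direction under the alternatives run. Among the genes that did not pass, 16 of 32 at 18 µg changed sign with median centring and 22 of 32 without normalization. At 162 µg 11 of 34 did so under either. Between 162 and 18 µg 4 of 27 changed sign with median centring and 8 of 27 without normalization. Counts of genes that passed at 18, 54 and 162 µg and between 162 and 18 µg were 3, 1, 1 and 8. They were 0, 0, 0 and 0 with median centring or no normalization, 3, 1, 0 and 8 with normexp background correction, 3, 1, 0 and 9 with the Cy5 channel alone, and 0, 0, 1 (higher, in place of lower) and 8 in the deposited log2 table. With no slide term they were 3, 0, 0 and 9, with slide as a random block 3, 0, 2 (1 higher, 1 lower) and 9, with only the 2 groups compared 1, 0, 3 and 12, and with outlier spots kept 3, 0, 0 and 8. Equal counts did not always hold the same genes. At 18 µg Sdf2l1, Hyou1 and Derl3 all lost their calls with only the 2 groups compared, and the 1 gene that passed was another. With no slide term or a random block, Sdf2l1 lost its call at 18 µg and 1 other gene gained one. Without a minimum fold they were 4, 1, 2 and 10, and with any probe of the gene 3, 1, 2 and 8. In alternatives chosen after seeing the data, they were 0, 0, 0 and 5 without the arrays of slide 4 and 0, 0, 0 and 3 without those of slide 7. Leaving out each mouse in turn gave 0 to 4, 0 to 1, 0 to 2 and 6 to 11, and 0 to 7 between 162 and 54 µg. Over 14 alternatives, besides mice left out, Calr and Pdia6 lost their call between 162 and 18 µg in 2, Hsp90b1, Pdia3 and Edem1 in 3, and Hspa5, Creld2 and Derl3 in 4. The rises at 18 µg were lost in 6 for Hyou1 and Derl3 and in 9 for Sdf2l1, that of Atf4 at 54 µg in 10, and the fall of Hsp90b1 at 162 µg in 9. The causes were not tested.

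The replicate block in place of slide gave 6, 0, 2 and 9. At 18 µg Sdf2l1 lost its call there and 4 other genes gained one. The labels number the samples within each group and name no pairing. Over 31 same-numbered pairs the correlation of deviations was -0.17 to 0.62, over 0.1 in 20, and 11 pairs shared a slide. Pairs on different slides reached 0.45 (replicate 2 at 162 and 18 µg). Of the 22 mice, 12 correlated best with their own number. Whether the numbers mark a shared block beyond slide was not tested.

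Scan date gave the same partition as slide and was not run separately, and quantile normalization of the average intensities leaves log ratios as they are. Signal close to background limits the precision of dim probes.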
